A study of Homo sapiens with 192 samples.

Results

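The 48 interferon target genes examined here are a fixed list of chemokines, antiviral effectors, RNA sensors and antigen presentation genes that cells are known to raise after interferon. DDX58 and RIGI, both in the list of 49 symbols, are the same gene. Their accessible chromatin was measured in HAP1, a near-haploid adherent human cell line, by plate-based single-nucleus ATAC-seq (snATAC-seq), in which the Tn5 transposase tags open DNA in bulk and single nuclei are then sorted into wells. The cells fell into 2 plates of 96. Nuclei given CASB, a lectin-bound DNA label, had been mixed with nuclei without it before tagmentation and sorting. Which cell carried the label is not given in the sources used here, so each plate is 1 mixed sample. The labels of these cells name no interferon and no other treatment, and the study's interferon time course was not analysed here. Both plates hold nuclei from the same mixture, no separate cultures are named, and cells are not replicates. No test was therefore made, and a share of cells is given with an exact (Clopper-Pearson) 95% interval, which covers counting error only.

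Interferons bind receptors at the cell surface and activate the kinases JAK1, JAK2 and TYK2, which phosphorylate STAT proteins. STAT dimers bind the gamma-activated sequence (GAS), the main route of interferon-gamma, and complexes that hold IRF9 bind the interferon-stimulated response element (ISRE), the main route of type I interferons. IRF1, itself a target, binds similar elements, and NF-kappa-B binds next to them at several chemokine genes. Before any interferon arrives, many of these genes are known to be expressed at a low level.

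The deposited table holds read-pair counts over 80971 features of 1001 bp on hg38, which are peaks called on all cells together. A start feature is a feature within 1000 bp of an annotated GENCODE 44 transcription start of a gene, and a locus feature lies in or within 20 kb of its body. By this rule the 48 genes had 30 start features and 85 locus features, and every start feature was also a locus feature. A feature counted as seen in a cell when it held at least 1 read pair. Cells with more than 300 peaks passed the filter, 83 in plate 1 and 79 in plate 2. They held between 345 and 15351 read pairs in features, with a median of 2067.5. At this depth a feature that was not seen in a cell is not shown to be closed there, and 80% of the entries above 0 at the 30 start features were a single read pair. A gene without a start feature has no listed peak there. Its count is then not known to be 0, since the table lists called peaks only, and it enters the medians below as 0.

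Some wells shared peaks. On each plate, cells 73 to 84 shared them with the cells numbered 36 lower, and cells 85 to 96 with those numbered 12 lower. Of the 25114 features seen in exactly 2 cells, 70.8% were seen in both wells of such a pair, although these 48 pairs are 0.262% of all pairs of cells. Of the passing cells, 71 stood in these wells and 91 did not. Values are therefore also given with a shared peak removed from the higher-numbered well ("counted once") or from the 91 cells alone. As for the identity of the cells, 0 of 7 blood and immune marker genes had a start feature, among them PTPRC and SPI1, against 5 of 5 markers of adherent mesenchymal cells. Of the latter, VIM was seen in 26 cells, CAV1 in 22, FN1 in 17, COL1A1 in 5 and LMNA in 4. Of 4 epithelial markers, EPCAM alone had a start feature, seen in 8 cells. Over all protein-coding genes 56.1% had a start feature, and a marker without one is not shown to be closed.

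The promoters of 5 target genes show what lies at these starts. Each line gives 250 bases before and 50 bases after the RefSeq start (GRCh38.p14), 5′ to 3′ on the strand of the gene. CXCL10 (chr4:76023448-76023747, minus strand) and CXCL11 (chr4:76036021-76036320, minus strand) are the chemokines that the study followed in HAP1, IFIT1 (chr10:89392373-89392672, plus strand) and ISG15 (chr1:1013247-1013546, plus strand) are classical antiviral targets, and RSAD2 (chr2:6865635-6865934, plus strand) had among the most often seen start features. The RefSeq promoter table used here holds 35 of the 48 genes, and TRIM22 is not among them. Capitals mark the ISRE core (GAAANNGAAA), the GAS core (TTCNNNGAA) and the NF-kappa-B letters (GGGANNTTCC), each searched on both strands. The RSAD2 window held none of them, and there capitals mark CG pairs. It lies at an upstream start of the gene, whereas the counts of CpG ratio and motifs further on use the canonical start, where RSAD2 had a ratio of 0.23 and 1 ISRE core.
CXCL10: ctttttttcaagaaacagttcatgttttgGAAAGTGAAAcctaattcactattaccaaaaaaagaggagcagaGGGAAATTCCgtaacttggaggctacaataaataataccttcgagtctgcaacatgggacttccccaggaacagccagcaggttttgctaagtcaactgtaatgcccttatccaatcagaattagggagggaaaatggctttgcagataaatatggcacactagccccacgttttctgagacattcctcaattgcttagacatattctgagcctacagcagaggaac
CXCL11: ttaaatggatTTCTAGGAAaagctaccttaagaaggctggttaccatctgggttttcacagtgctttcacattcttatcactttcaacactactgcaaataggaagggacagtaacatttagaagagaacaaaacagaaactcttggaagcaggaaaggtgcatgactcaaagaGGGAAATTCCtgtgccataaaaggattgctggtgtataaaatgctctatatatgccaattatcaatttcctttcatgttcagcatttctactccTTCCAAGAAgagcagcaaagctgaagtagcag
IFIT1: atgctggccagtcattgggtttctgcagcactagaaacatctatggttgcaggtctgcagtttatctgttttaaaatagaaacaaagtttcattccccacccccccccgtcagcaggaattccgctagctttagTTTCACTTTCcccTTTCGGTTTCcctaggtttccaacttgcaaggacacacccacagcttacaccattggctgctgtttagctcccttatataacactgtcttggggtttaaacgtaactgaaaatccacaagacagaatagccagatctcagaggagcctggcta
ISG15: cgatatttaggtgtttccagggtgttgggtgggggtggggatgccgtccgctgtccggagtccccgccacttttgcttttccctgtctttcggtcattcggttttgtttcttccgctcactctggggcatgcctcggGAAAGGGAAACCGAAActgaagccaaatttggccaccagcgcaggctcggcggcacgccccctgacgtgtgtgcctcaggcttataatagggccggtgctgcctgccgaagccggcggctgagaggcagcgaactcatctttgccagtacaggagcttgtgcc
RSAD2: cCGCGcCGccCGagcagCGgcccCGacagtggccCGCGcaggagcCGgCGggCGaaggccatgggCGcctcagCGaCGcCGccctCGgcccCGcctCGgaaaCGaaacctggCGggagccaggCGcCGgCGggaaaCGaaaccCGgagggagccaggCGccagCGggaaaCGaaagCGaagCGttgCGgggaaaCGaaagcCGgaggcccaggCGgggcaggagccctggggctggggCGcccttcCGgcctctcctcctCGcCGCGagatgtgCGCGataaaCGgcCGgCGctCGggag
The CXCL10 window held 1 ISRE core, at position -221 from the start, and 1 NF-kappa-B match at position -177. The CXCL11 window held an NF-kappa-B match with the same letters at position -76 and 2 GAS matches, with no ISRE core. IFIT1 and ISG15 each held 2 ISRE cores. The CpG ratio, the number of CG pairs over the number expected from the C and G content, was 0.234 for CXCL10, 0 for CXCL11, 0.26 for IFIT1, 0.752 for ISG15 and 1.061 for RSAD2. Of these 5 windows, only that of RSAD2 lay inside features of the table.

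Of the 48 target genes, 24 had a start feature (50.0%), against 56.1% of all protein-coding genes. The median number of annotated starts, each of which can bring a feature, was 9 for target genes and 5 for all protein-coding genes. The start features of 4 genes (8.33%) were seen in at least 10 passing cells, against 25.6% of protein-coding genes. These 4 were TRIM22, RSAD2, UBE2L6 and IFIH1, and the other 20 genes with a start feature were seen in 2 to 9 cells. The median over target genes was 1 cell (between genes at 0 and at 2), or 0.617% of passing cells, against 3 cells (1.85%) for all protein-coding genes, and the most often seen protein-coding gene reached 72 cells. Counted once, 3 target genes reached 10 cells, against 23.5% of protein-coding genes, as IFIH1 fell to 9. From the 91 passing cells outside the paired wells, RSAD2 and UBE2L6 reached 10 cells, against 9.72% of protein-coding genes.

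**Figure D1:**
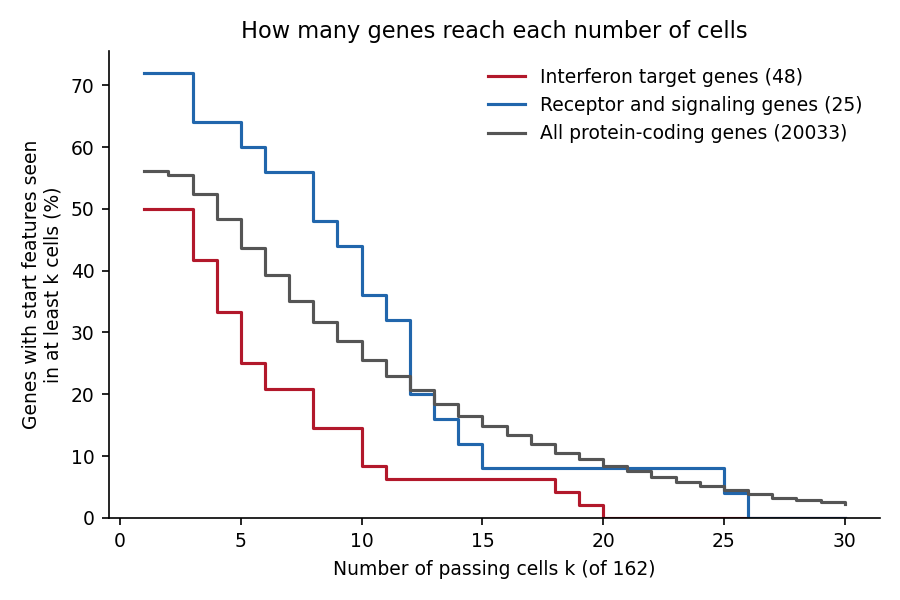
Share of genes (vertical axis, %) whose start features were seen in at least k passing cells (horizontal axis, k), for the 48 interferon target genes, 25 receptor and signaling genes and all protein-coding genes. The line of the target genes starts at 50.0% and falls to 8.33% at 10 cells, where the line of all protein-coding genes is at 25.6%.

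The chemokines CXCL9, CXCL10 and CXCL11, which draw activated T cells through the receptor CXCR3, lie side by side on chromosome 4, and none of the 3 had a start feature. CXCL9 (ENSG00000138755) spans chr4:76001275-76007509, CXCL10 (ENSG00000169245) chr4:76021118-76023497 and CXCL11 (ENSG00000169248) chr4:76033682-76041415, all on the minus strand. The feature nearest to all 3 was the same one, chr4:76009332-76010332, in intergenic sequence within 1000 bp of an annotated start of ART3. It lay 1.823 kb upstream of CXCL9, 13.165 kb from the CXCL10 start and 25.738 kb from the nearest CXCL11 start. It was seen in 2 passing cells of plate 1 and 0 of plate 2, and these 2 were paired wells, so that 1 cell remained when it was counted once. The only other feature within 60 kb of the CXCL10 start lay at the start of SDAD1, behind CXCL9, and was seen in 11 cells, 3 in plate 1 and 8 in plate 2. Between the canonical starts of CXCL9 and CXCL11, 28.561 kb apart, the ART3 feature was thus the only one listed.

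**Figure D2:**
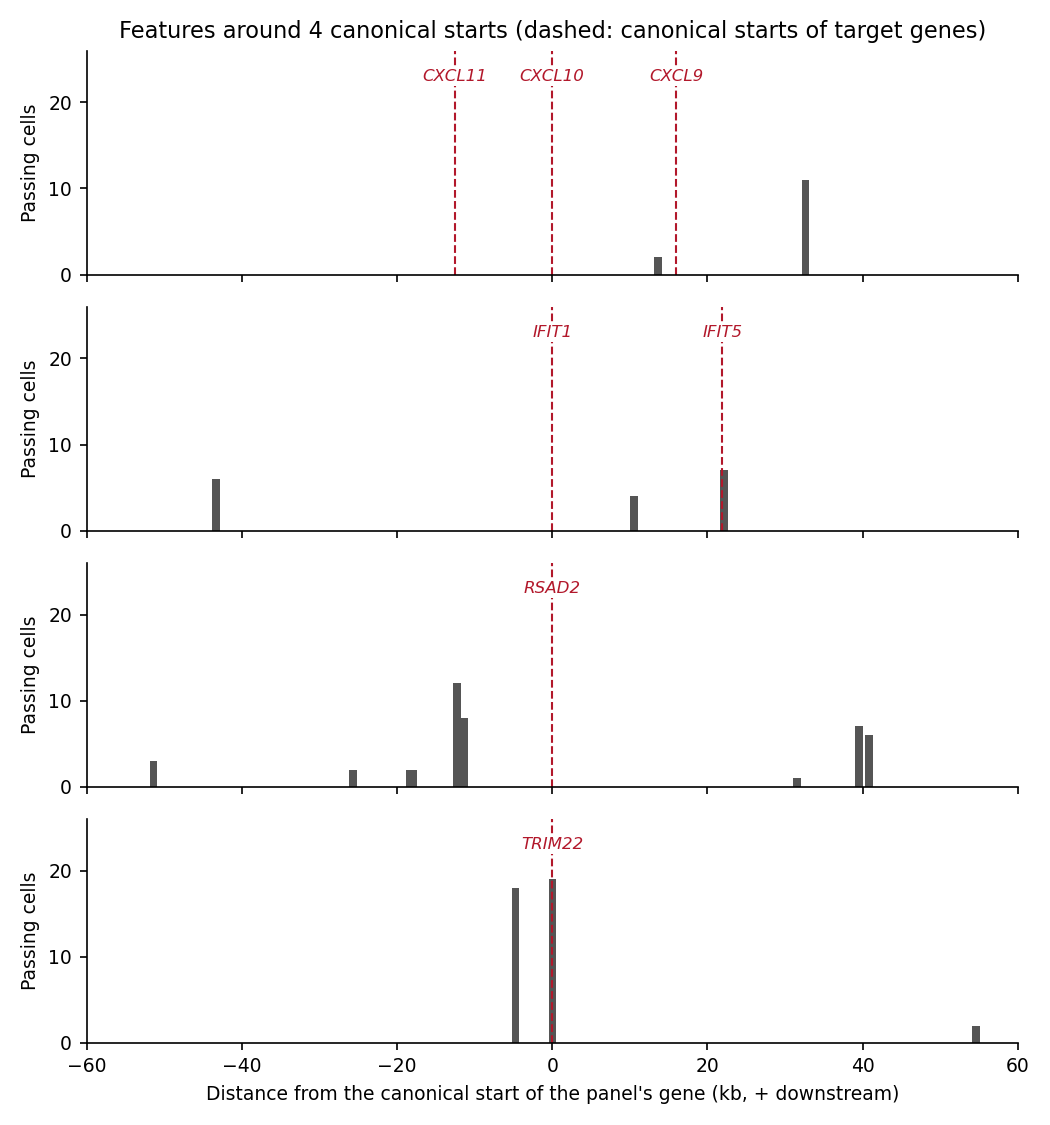
Passing cells (vertical axis) with each feature within 60 kb of the canonical starts of CXCL10, IFIT1, RSAD2 and TRIM22 (horizontal axis, kb, positive in the direction of transcription). Bars are features and dashed lines are canonical starts of target genes. No bar stands at the starts of CXCL10, CXCL11 or IFIT1, the 2 RSAD2 start features are centred -12.2 and -11.4 kb from its canonical start, and a bar of 19 cells stands at TRIM22.

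TRIM22 (ENSG00000132274, chr11:5689610-5737089), which encodes an antiviral ubiquitin ligase of the tripartite motif family, had the most often seen start over all passing cells, before paired wells were considered. Its start feature, chr11:5689330-5690330, was seen in 8 of 83 cells of plate 1 (9.64%) and 11 of 79 cells of plate 2 (13.9%), together 11.7% (interval 7.21 to 17.7%). Counted once it was seen in 17 cells, and RSAD2 in 18. Outside the paired wells TRIM22 was seen in 8 cells, and RSAD2 and UBE2L6 in 10 each, so TRIM22 was not first by either count. A second feature, centred 4.729 kb upstream of the TRIM22 start and at the start of the neighbouring restriction factor gene TRIM5, was seen in 18 cells, 10 in plate 1 and 8 in plate 2.

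RSAD2 (ENSG00000134321, chr2:6865557-6898239) encodes viperin, an antiviral enzyme. Start features of RSAD2 reached 7 cells of plate 1 (8.43%) and 11 of plate 2 (13.9%), a share over both plates of 11.1% (interval 6.72 to 17%). None of these cells was lost when shared peaks were counted once. These are 2 overlapping features, chr2:6865042-6866042, seen in 12 cells, and chr2:6865894-6866894, seen in 8, and both also lie at the start of CMPK2, a nucleotide kinase gene transcribed the other way. They reach 6 of the annotated RSAD2 starts, whereas the canonical RSAD2 start lay 10.883 kb from the nearest feature. With canonical starts alone, RSAD2 therefore had none. Other genes whose start features lay only at a start other than the canonical one were ISG15, GBP5, MX1, IFI27, IFI44L and CIITA, which makes 7 genes in all and leaves 17 with a feature at the canonical start (35.4%, against 50.0% of protein-coding genes).

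The ISG15 system attaches the ubiquitin-like protein ISG15 to other proteins. UBE2L6 (ENSG00000156587, chr11:57551656-57568284), its conjugating enzyme, had a start feature, chr11:57567742-57568742, seen in 8 cells of plate 1 (9.64%) and 9 of plate 2 (11.4%), together 10.5% (interval 6.23 to 16.3%). ISG15 itself (ENSG00000187608) had a start feature in 2 cells of each plate, but that feature lies near a distal annotated start which it shares with HES4, and the nearest feature to the canonical start was 4.167 kb away. USP18, which removes ISG15 and restrains the type I receptor, was the target gene farthest from any feature, at 125.001 kb.

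All 3 RNA sensing genes had a start feature, where 56.1% of protein-coding genes had one, and a list of 3 genes says little beside that share. IFIH1 (ENSG00000115267, chr2:162267074-162318684), which encodes the sensor MDA5, was seen in 6 cells of plate 1 (7.23%) and 4 of plate 2 (5.06%), together 6.17% (interval 3.00 to 11.1%), over 2 overlapping features that are shared with the start of GCA. RIGI (ENSG00000107201, chr9:32455302-32526208), the sensor RIG-I, was seen in 4 cells of plate 1 (4.82%) and 5 of plate 2 (6.33%), in 1 feature at its own start. EIF2AK2, the kinase PKR that halts translation, was seen in 1 cell of plate 1 and 3 of plate 2. The share of RIGI over both plates was 5.56% (interval 2.57 to 10.3%). The intervals of IFIH1 and RIGI overlap those of TRIM22, RSAD2 and UBE2L6. All were counted in the same cells, so this overlap does not decide their order, which was not tested.

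Of the 7 antigen presentation genes, 5 had a start feature (71.4%, against 56.1% of protein-coding genes). TAP1 (ENSG00000168394, chr6:32845209-32853816), a subunit of the peptide transporter, was seen in 3 cells of plate 1 (3.61%) and 6 of plate 2 (7.59%) over 2 features shared with the immunoproteasome gene PSMB9, and in 7 cells when counted once. Its partner TAP2 was seen in 2 cells of plate 1 and 3 of plate 2. B2M (ENSG00000166710, chr15:44711358-44718851), the light chain of class I molecules, was seen in 4 cells of plate 1 (4.82%) and 5 of plate 2 (6.33%) over 2 features shared with the start of PATL2, and HLA-E in 3 and 2 cells. CIITA, the master regulator of class II genes, had 1 feature, which is shared with DEXI, lies 63.884 kb from the canonical CIITA start and was seen in 2 paired wells of plate 2. TAP1 and B2M each reached 5.56% of passing cells (interval 2.57 to 10.3%), and TAP2 and HLA-E 3.09% (interval 1.01 to 7.06%). HLA-B and HLA-C, both class I heavy chain genes, had no start feature, and their nearest features lay 32.047 and 110.225 kb away. CD274, which encodes the checkpoint ligand PD-L1 and is listed apart from this group, was seen in 6 cells of plate 1 (7.23%) and 1 of plate 2 (1.27%) at its own start.

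In the antiviral families, a start feature was listed for 2 of 4 IFIT genes, 3 of 6 OAS and MX genes, 2 of 5 guanylate-binding protein genes and 0 of 3 IFITM genes, where 56.1% of protein-coding genes had one. Among the IFIT genes, which bind foreign RNA and lie in 1 cluster on chromosome 10, IFIT5 was seen in 7 cells (3 in plate 1 and 4 in plate 2), at a start shared with LIPA, and IFIT3 in 4 (1 and 3). IFIT1 and IFIT2 had no start feature, with the nearest features 10.036 and 20.689 kb away. None of IFITM1, IFITM2 and IFITM3, membrane proteins that block virus entry, had a start feature, with nearest features between 6.394 and 26.856 kb away. Of the OAS and MX genes, OAS3 was seen in 4 cells, OASL in 3 and MX1 in 2, while OAS1, OAS2 and MX2 had none. Of the guanylate-binding proteins, interferon-induced GTPases, GBP4 and GBP5 were each seen in 2 cells, both of plate 1, and GBP1, GBP2 and GBP3 had none. ISG20, an exonuclease gene, was seen in 3 cells, and BST2 (tetherin), APOL1 and XAF1 had no start feature. IFI27 and IFI44L were seen in 3 cells each, and IFI6, IFI35 and IFI44 had none. WARS1, the tryptophanyl-tRNA synthetase, was seen in 7 cells (5 in plate 1 and 2 in plate 2) over 2 features shared with the start of WDR25, whereas IDO1, which degrades tryptophan, had none. IFIT5, CD274 and WARS1 each reached 4.32% of passing cells (interval 1.75 to 8.70%). The start features of GBP5, MX1 and CIITA were seen in paired wells alone, and 1 cell remained for each when counted once.

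Between the plates, 18 of the 24 genes with a start feature were seen in both, 4 in plate 1 only (GBP4, GBP5, OASL and IFI44L) and 2 in plate 2 only (MX1 and CIITA). The highest of these, OASL and IFI44L, were seen in 3 cells of plate 1 (3.61%), and the exact interval of 0 of 79 cells in plate 2 reaches 4.56%, so no difference was detectable at this depth. The largest differences between plates were those of CD274 (-5.96 percentage points, plate 2 minus plate 1), RSAD2 (5.49) and TRIM22 (4.29). The intervals of the plates overlapped for every target gene, including CD274 (2.70 to 15.1% in plate 1 and 0.0320 to 6.85% in plate 2). Intervals did not overlap for 0 of the 48 genes, against 0.145% of protein-coding genes. CASB-labeled and unlabeled cells cannot be told apart within a plate.

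**Figure D3:**
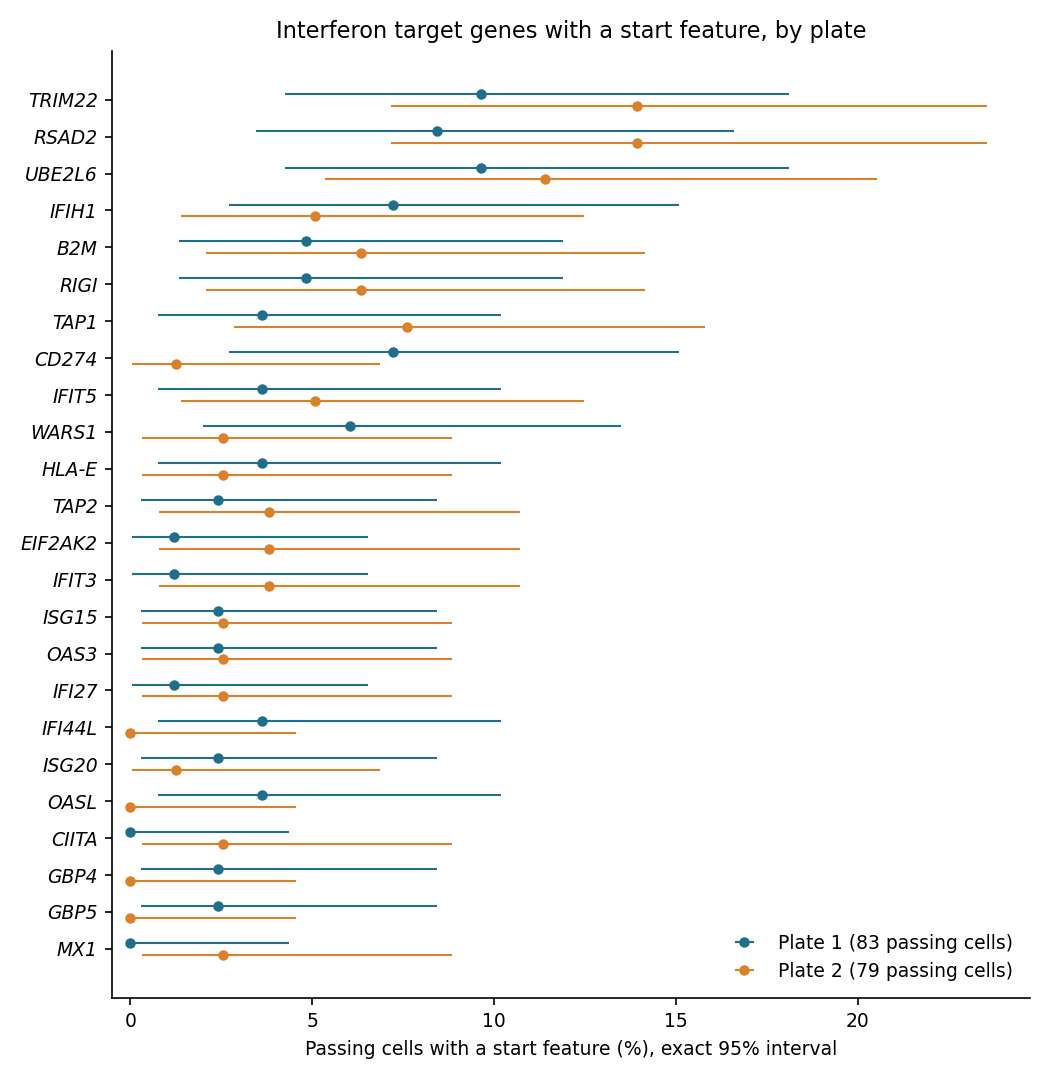
Share of passing cells (horizontal axis, %) with a start feature of each of the 24 target genes that had one, in plate 1 (83 cells) and plate 2 (79 cells). Points are shares and bars are exact 95% intervals. TRIM22, RSAD2 and UBE2L6 lie highest, and the intervals of the plates overlap for every gene.

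At least 1 start feature of a target gene was seen in 78 passing cells (48.1%, interval 40.2 to 56.1%), with 41 of 83 cells in plate 1 (49.4%) and 37 of 79 in plate 2 (46.8%). Most of these cells showed few genes, with 29 cells showing 1 gene, 29 showing 2 and 15 showing 3, and the most was 7 genes in 1 cell. This number moved with depth. Among the 41 cells with the fewest read pairs (345 to 1090), 6 had a start feature of a target gene (14.6%), against 34 (82.9%) of the 41 cells with the most (4024 to 15351). The latter held 55.7% of all pairs of a target gene and a cell in which it was seen. These 41 cells also held most of the read pairs of passing cells, so this share alone shows no concentration of target genes in them. After thinning to 600 read pairs a cell, for which 16 cells were too shallow, the share was 24.7%. The 30 start features took 223 of 478379 read pairs (0.0466%, interval 0.0407 to 0.0532%), with 0.0487% in plate 1 and 0.0445% in plate 2. A share this small goes with the small number of features, 30 of 80971, and does not by itself show a low signal.

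Genes that receive and carry the interferon signal were taken from a separate list. It also holds SOCS1, SOCS3 and PIAS1, which restrain that signal, and the NF-kappa-B genes NFKB1, NFKB2, RELA, RELB, REL and NFKBIA. Of 25 interferon receptor and signaling genes, 18 had a start feature (72.0%) and 9 were seen in at least 10 cells (36%), against the 56.1% and 25.6% of all protein-coding genes. NFKB1, NFKB2, NFKBIA and PIAS1 were among these 9. IRF1 was seen in 25 cells (12 in plate 1 and 13 in plate 2) and JAK2 in 24 (12 in each). JAK1 was seen in 13 cells, STAT2 in 8 and IRF9 in 7. Of the subunits of the interferon-gamma receptor, IFNGR1 was seen in 9 cells (2 in plate 1 and 7 in plate 2) and IFNGR2 in 4 (1 and 3). The share of cells with at least 1 start feature of this list was 59.9% (interval 51.9 to 67.5%), from 25 genes and 38 features. These 38 features took 0.0564% of read pairs (interval 0.0499 to 0.0636%), beside 0.0466% for the 30 of the target genes. The median number of annotated starts per gene was 17 in this list and 9 in the target genes. Whether the 2 lists differ was not tested.

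The distance to the nearest feature was also compared. Within 1 kb of the canonical start a feature was listed for 17 of 48 target genes (35.4%), 50.0% of protein-coding genes and 18 of 25 receptor and signaling genes (72.0%). Within 5 kb these shares were 47.9%, 58% and 72.0%, and within 50 kb they were 91.7%, 89.8% and 92%. At the limit of the 1000 bp rule, IFI44L was the target gene just inside, with a feature 992 bp from a start seen in 3 cells, and CXCL9 just outside, at 1823 bp. The next were MX2 at 2232 bp and GBP1 at 3698 bp.

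**Figure D4:**
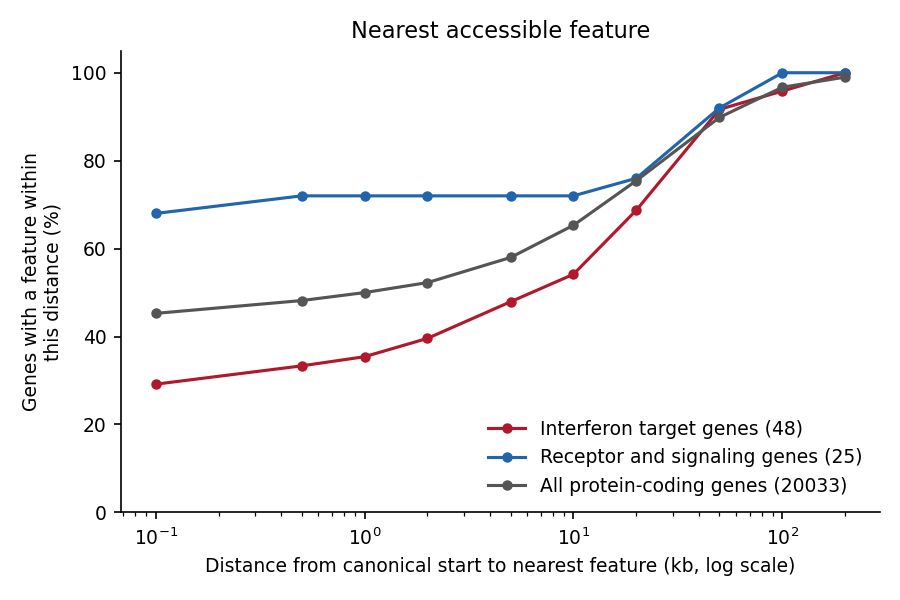
Share of genes (vertical axis, %) with a feature within a given distance of the canonical start (horizontal axis, kb, log scale), for target genes, receptor and signaling genes and all protein-coding genes. At 1 kb the shares are 35.4%, 72.0% and 50.0%, and at 50 kb they are between 89.8 and 92%.

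Of the 85 locus features, 30 were start features of a target gene, 20 lay at the start of another gene and 35 (41.2%) lay away from every annotated start. For all protein-coding genes, 64.7% of the 50909 features in and within 20 kb of their bodies lay away from every start. The median gene length was 16.8 kb for target genes and 27.5 kb for all protein-coding genes, and its part in these shares was not tested. The median target gene had 2 locus features, as had the median protein-coding gene. Per 100 kb of body and flanks, the medians were 2.38 and 2.92. No locus feature was listed for 9 target genes (18.8%), against 15.7% of protein-coding genes. These 9 were CXCL11, GBP2, IFITM1, IFITM2, XAF1, USP18, IFI6, HLA-B and HLA-C. Target gene start features were seen in a median of 4.5 cells, and 3 of 30 (10.0%) in at least 10. Start features of all protein-coding genes had a median of 6 cells, and 28.1% were seen in at least 10. The 20 features at the starts of neighbouring genes had a median of 6 cells. The highest were those of KYAT3 and RBMXL1 beside GBP3 and of TRIM5, with 18 cells each, and of PLGRKT beside CD274, with 16.

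The 35 features away from starts were seen in a median of 3 cells, and in no more than 9. By annotation, 16 were intergenic, 14 intronic and 5 overlapped an exon. The most often seen was chr2:162320729-162321729, in an intron of GCA with its centre at -2545 bp from the IFIH1 start, with 5 cells in plate 1 and 4 in plate 2, and the overlapping chr2:162321357-162322357 was seen in 4 cells of each plate. The others among the first 5 were seen in 8 cells each. These were an intergenic feature centred -2677 bp from the canonical IFI44L start (chr1:78617271-78618271, 3 cells in plate 1 and 5 in plate 2), an intergenic one behind GBP5 (chr1:89238936-89239936, 1 and 7) and one in an intron of AEN upstream of ISG20 (chr15:88623885-88624885, 4 and 4). Counted once, these 5 were seen in 6 to 8 cells. Across all 85 locus features, 23 were seen in exactly 2 cells, and 17 of these in paired wells alone.

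Most of these genes start in CpG-poor sequence. In the 300 bases around the canonical start (250 before and 50 after, read from hg38), the median CpG ratio was 0.296 for the 48 target genes and 0.775 for all protein-coding genes. It was under 0.4 in 27 target genes (56.2%), against 24.2% of protein-coding genes. In this range, 4 of 27 target genes had a feature at the canonical start (14.8%), against 10.6% of protein-coding genes. From 0.4 to 0.75 the shares were 6 of 10 (60%) and 51.3%, and from 0.75 they were 7 of 11 (63.6%) and 67.3%. With features at any annotated start, the shares in the 3 ranges were 9 of 27 (33.3%), 6 of 10 (60%) and 9 of 11 (81.8%) for target genes, and 20.6%, 57% and 71.7% for all protein-coding genes. These shares rest on few target genes and were not tested. The chemokines, all guanylate-binding protein genes, IFIT1, IFIT2, OAS1 and OAS2 were in the low range, and the high range held UBE2L6, RIGI, B2M, CD274, IFIT5, TAP2 and EIF2AK2, with a feature at the canonical start, and ISG15, MX1, HLA-B and USP18, without one. The 4 genes of the low range with a feature at the canonical start were TRIM22 (ratio 0.17), WARS1, GBP4 and OASL. Seen in at least 10 cells were 2 of the 27 target genes under 0.4 (7.41%, against 5.36% of protein-coding genes), 1 of 10 from 0.4 to 0.75 (10.0%, against 27.3%) and 1 of 11 from 0.75 (9.09%, against 34%).

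**Figure D5:**
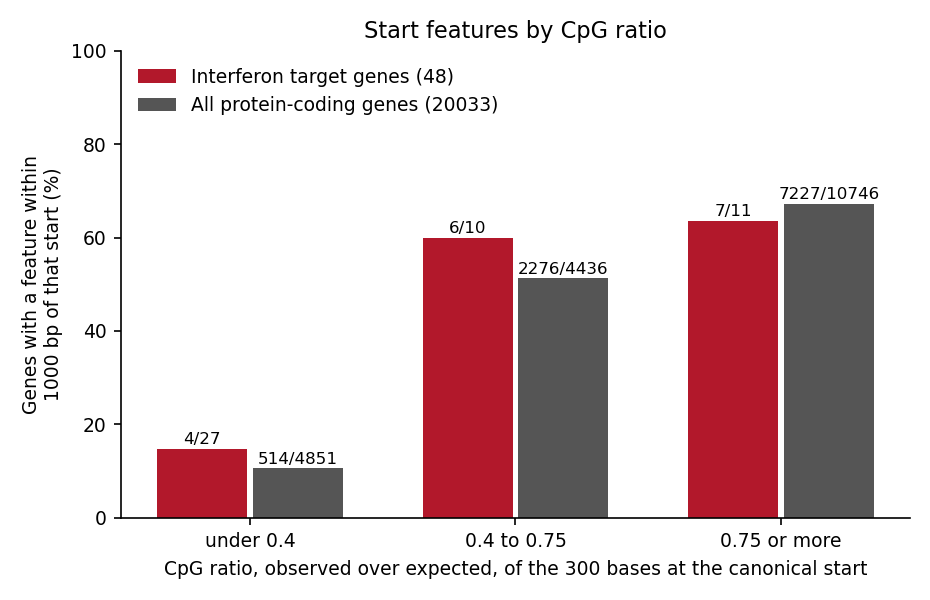
Share of genes (vertical axis, %) with a feature within 1000 bp of the canonical start, in 3 ranges of the CpG ratio of the 300 bases there (horizontal axis), for target genes and all protein-coding genes. Numbers above bars are genes with a feature over genes in the range. The target genes rise from 14.8% to 63.6%, and all protein-coding genes from 10.6% to 67.3%.

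In the same windows the ISRE core was found in 32 of 48 target genes (66.7%) and 3.28% of all protein-coding genes. It was found in 17 of the 24 with a start feature (70.8%) and 15 of the 24 without (62.5%), and in 2 of 25 receptor and signaling genes. For 5 of the 17 (RSAD2, ISG15, IFI27, IFI44L and CIITA) the start feature lay at another start than the window. The GAS core was found in 10 target genes (20.8%, against 6.49%), 4 of them with a start feature and 6 without. It was also found in 6 of 25 receptor and signaling genes. The NF-kappa-B letters were found in 8 target genes (16.7%, against 1.45%), namely B2M, CXCL10, CXCL11, GBP4, IFIH1, OAS3, RIGI and TAP1. Receptor and signaling genes held these letters in 6 of 25 cases. For the GAS core and the NF-kappa-B letters, the share of target genes was thus not above that of the receptor and signaling genes. Of the 30 start features themselves, 12 (40.0%) held an ISRE core somewhere in their 1001 bases, against 12% of all features at a start, and 9 (30.0%) held NF-kappa-B letters, against 4.35%. A GAS core was held by 8 of these 30 (26.7%), near the 22.3% of all features at a start. Of the 35 features away from starts, 5 (14.3%) held an ISRE core, against 18% of all such features, 15 (42.9%) a GAS core, against 30.8%, and 2 (5.71%) NF-kappa-B letters, against 2.63%. These genes are known as interferon targets, in part through such letters, and a match is a description of the letters and not of a bound site.

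Reads of low mapping quality were removed before counting, which touches gene families with near-identical copies. Of all stretches of 100 bases within 500 bp of the canonical start, at least 97.1% had no exact copy elsewhere on the primary chromosomes for every target gene, the lowest being IFITM1. Copies with mismatches were not counted, so this does not show that near-identical copies are absent. With the alternate sequences of the reference included, the share fell to 0% for TAP1, TAP2, HLA-E and IFI27, to 9.99% for B2M, 24.7% for HLA-C and 47% for HLA-B. Of these 7 genes, 5 had a start feature. Whether the authors' index held alternate sequences is not given in the sources used here, and the part of this in the counts was not tested, so the values of these 7 genes are uncertain. For the other genes, an effect of near-identical copies was not tested either.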

How the data were processed

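Plate-based snATAC-seq of HAP1 cells was measured as 2 plates of 96 wells. The authors trimmed and aligned the reads to hg38, removed mitochondrial pairs, mapping qualities under 20 and duplicates of each cell, ran MACS2 once over the pooled cells, widened each summit by 500 bp and counted read pairs with featureCounts (version 1.6.0). The deposited values are these raw counts, with no normalization, and a pair is counted in each feature it overlaps. All columns were matched to cells, and 0 were left over. Feature chromosomes were checked against the reference, and 0 features ended past a chromosome.

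The table was binarized, and cells with more than 300 peaks among peaks seen in more than 1 cell passed. Starts and genes came from GENCODE 44. The members and gene lists were chosen with earlier results of these data known. By the rule for names, full values were given for CXCL9, CXCL10 and CXCL11, the 12 genes with the highest share of passing cells, the 3 with the largest plate difference, 8 receptor and signaling genes, of which 1 is not reported here, and the 5 most seen features away from starts. The ranges of CpG ratio and the count of 100-base stretches were chosen after the data had been seen. Alternatives covered the start distance, the starts used, filters on cells and features, paired wells, thinning, binarization and the flank.

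Passing cells held 345 to 15351 read pairs, which sets the precision. Reads carry no molecular identifiers. Nuclei were sorted, and no doublet caller was run. Scripts were tested on simulated data. The tools were pandas 2.3.3, pysam 0.24.0, SciPy 1.17.1 and matplotlib 3.10.9 under Python 3.11.15.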

Additional observations from a re-analysis of the deposited data

How the results depend on the processing

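Of 44 recomputed values that answer a comparison, 27 stayed within 1.5 times (counts) or within the exact interval of the reported value. The median share of cells per target gene went from 0.617% to 0% when the feature had to contain the start, with canonical starts only, without the paired wells and with cells thinned to 600 read pairs. The median over all protein-coding genes also fell, from 1.85% to 0.617%, 0.617%, 1.10% and 0% in these settings. The number of genes seen in at least 10 cells was 7 with starts within 5000 bp and 2 without the paired wells, and the number with a start feature was 12 with features seen in at least 5 cells. The share of cells with any start feature was 60.5% within 5000 bp, 59.7% in cells with more than 1000 peaks and 24.7% after thinning. The share of read pairs was 0.0399% where the feature contained the start, 0.0644% within 5000 bp, 0.0368% at canonical starts and 0.0551% without the paired wells. Locus features numbered 150 with a flank of 50 kb and 39 when seen in at least 5 cells, of which 25.6% lay away from starts. In each of the 9 settings of the start distance, the starts, the features, the cells and the wells, the share of target genes with a start feature or in at least 10 cells stayed below that of all protein-coding genes. The causes of these changes were not tested. For the 12 named genes, 81 of 84 shares stayed within their intervals. RSAD2 had no feature at its canonical start (0%), and with 5000 bp TRIM22 reached 21% and IFIH1 11.7%. No paired analysis was possible because the result comes from no test and a cell number names a well, not a pair of samples. Depth limits what can be seen in a cell, since passing cells held as few as 345 read pairs.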
